A study of Mus musculus with 4 samples.

Results

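The transcriptome of mouse primary osteoblasts cultured without added protein was read from 1 array. Its members were the genes with at least 1 non-control probe whose signal the scanner software had called well above background on the array of cells given neither BMP2 nor LOXL2. They numbered 23726 of 34778 genes and identifiers on the array (68.2%), and 16261 of the 22280 with a gene symbol (73.0%). Members were ranked by their normalised signal, which is log2 of the processed intensity minus log2 of the array's 75th percentile, so that 0 marks the 75th percentile and every step of 1 is a doubling. Unless a change is named, each value given for a gene is a level on this scale.

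Besides the untreated culture there were 3 others, given LOXL2 at 4 µg/ml, BMP2 at 200 ng/ml, or both at those doses, each for 72 h. Each of the 4 was read on 1 Agilent single-colour array, and the arrays are called untreated, LOXL2, BMP2 and combined. The labels call the source primary osteoblasts and the cell type pre-osteoblasts, and every culture, the untreated one included, grew in 10% FBS. LOXL2 is a lysyl oxidase, a secreted enzyme that acts on collagen, and BMP2 is a growth factor that drives bone formation. Neither strain, age, sex nor the bone of origin is given in the sources used here, nor whether the 4 cultures came from separate preparations. No treatment was replicated, so levels on the untreated array are described without a test, and the other 3 arrays stand beside them.

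Osteoblasts are the cells that build bone. They secrete a matrix of type I collagen, and mineralise it with the help of alkaline phosphatase and of acidic and vitamin K dependent proteins such as osteopontin, bone sialoprotein and osteocalcin. The lineage is set up by the transcription factor Runx2 and then Sp7 (osterix), and some of its cells end as osteocytes buried in the matrix. Cultures of primary osteoblasts are known to carry other cells of the tissue, among them fibroblasts, cartilage cells, macrophages and endothelium.

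In signal over background the untreated array was like the rest: 61.3% of its non-control spots were well above background, against 60.4% to 62.2% elsewhere, and no spot was saturated. Of 308 negative control spots, 4 were called well above background. The 290 probes printed on many spots, all of them well above background, had a median standard deviation of 0.067 between spots. That figure covers neither dimmer probes nor variation between cultures. Over the 23726 members, the median absolute difference from the untreated array was 0.0893 on the LOXL2 array, 0.224 on the BMP2 array and 0.238 on the combined array. A level differed by 1 or more for 1.23%, 6.82% and 7.71% of the members in the same order, and 98% of the members were also above background on the LOXL2 array. In limma with Benjamini-Hochberg adjustment, no gene was called for LOXL2 (0 of 23873 tested), with 1482 at an unadjusted p under 0.05 and 14 called with trend and robust settings. With 1 residual degree of freedom, a count of 0 does not show that LOXL2 changed nothing.

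The brightest members were genes of the ribosome and of bone matrix. After the 18S ribosomal RNA (Rn18s) at 9.54 came Sparc, the osteonectin of bone matrix, at 9.46 and Col1a2, a chain of type I collagen, at 9.44. Ribosomal proteins with an Rpl or Rps symbol made up 13 of the 30 brightest genes and 38 of the 100 brightest. Of 81 such genes on the array, 79 were above background and the same number lay above the 75th percentile, with a median of 7.95 over the 81. Sparc stood at 9.46 on the untreated array, 9.60 on the LOXL2 array, 9.45 on the BMP2 array and 9.42 on the combined array, and values for 4 arrays are given in that order from here on. Col1a2 stood at 9.44, 9.43, 9.38 and 9.26. Neither matrix gene passed the test for BMP2 (adjusted p = 0.395 for Sparc and 0.276 for Col1a2 in limma). On mm9, the Sparc probe lies on chromosome 11 from 55208939 to 55208998 and the Col1a2 probe on chromosome 6 from 4490619 to 4490678.

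H19, an imprinted noncoding RNA of fetal and growing tissue, ranked among the 30 with a level of 9.07 on the untreated array. It gave 9.08, 9.10 and 9.03 on the other 3, which is within the spread between spots. Its 7 probes ran from 9.07 down to -0.62, and 6 of them were at 6.22 or higher. Fibronectin (Fn1), the adhesive glycoprotein of the pericellular matrix, was at 8.90, 9.01, 9.19 and 9.15. Timp2, an inhibitor of matrix metalloproteinases, was at 8.74, 8.75, 8.53 and 8.48. The cytoskeletal actins Actb and Actg1 were at 9.04 and 8.85 on the untreated array, and Actb was the most variable of the 30, with 8.99, 8.70 and 8.64 on the LOXL2, BMP2 and combined arrays. Fau and Rpsa, both parts of the small ribosomal subunit, were at 8.75 and 8.80, and Rack1, a scaffold protein on that subunit, was at 9.0. Tpt1, a translation-linked growth protein, was at 9.23, and the peptidyl-prolyl isomerase Ppia at 8.89. The rest of the 30 consisted of further ribosomal proteins and of 5 genes taken up below.

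Over the 4 arrays the 30 brightest genes varied by 0.06 to 0.40, and each of the 100 brightest stayed within 1, against 89.9% of all members. Of the 100 brightest genes, 97 were also among the 100 brightest of the LOXL2 array, which left out Ldha, Lgals1 and Rpl13. The BMP2 and combined arrays each shared 90, and the same 10 genes dropped out on both: the matrix proteoglycans Lum and Dcn, the procollagen C-proteinase enhancer Pcolce, Vim, Lgals1, Pebp1, Phyhd1, Coa8, Cox6a1 and COX3. Brightness is a property of a probe as well as of its transcript, so this order is one of probes and not of transcript numbers. With the median over a gene's probes in place of 1 probe, 65 of the 100 stayed among the 100 brightest, and H19, Actg1, Timp2 and Rpsa did not. The dimmest probes of Actg1, Timp2 and Rpsa read 5.57, 5.93 and -1.23. Neighbours in the order mostly differed by less than the spread between spots.

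**Figure D1:**
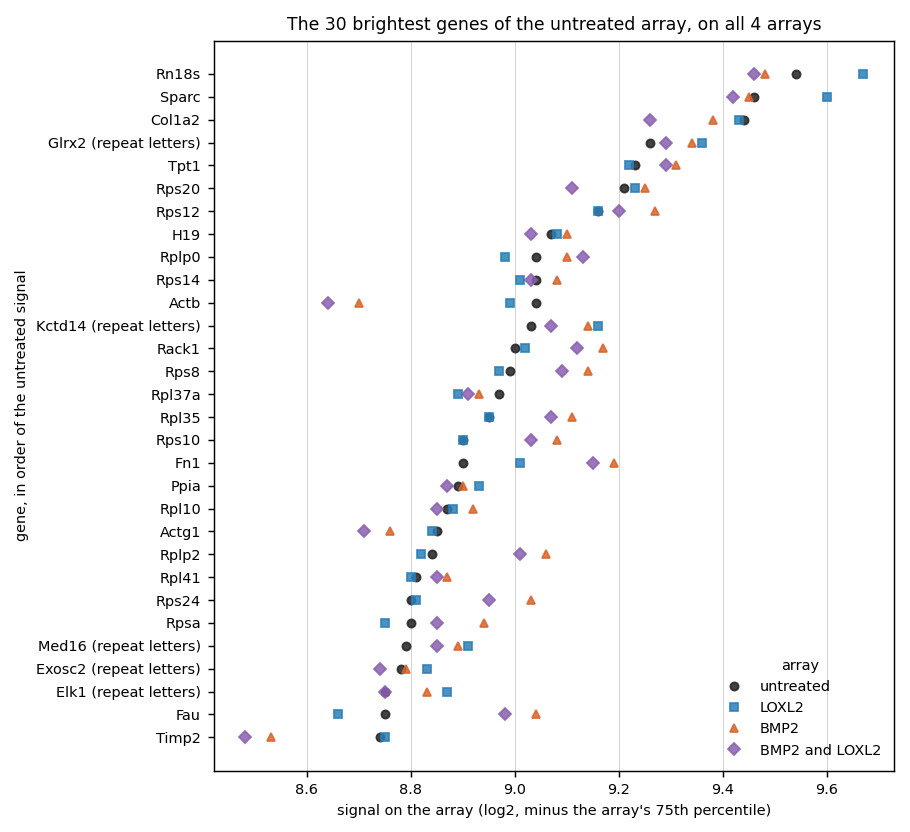
Normalised signal (x axis, log2 relative to the array's 75th percentile) of the 30 genes brightest on the untreated array, with 1 marker for each of the 4 arrays, which were not replicated. Most genes have their 4 markers within 0.2 of each other, Actb spans 0.40, and 5 genes are measured by a probe with repeat letters.

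The letters of the probes set 5 of the 30 apart. The brightest probes of Glrx2 (a mitochondrial glutaredoxin), Kctd14, Med16 (a Mediator subunit), Elk1 (an ETS transcription factor) and Exosc2 (an exosome subunit) each hold a stretch that other, unrelated probes of the array hold as well. Kctd14, Glrx2, Med16 and Elk1 share 13 bases with the probe of Ttc38, which ranked just below the 30. Exosc2 shares 20 bases with Milr1, also just below them. The shared letters are those of the B1 and B2 elements, short interspersed repeats that mouse transcripts carry in great number. They are shown because 5 of the 30 highest ranks rest on probes whose letters are not particular to the named gene. Of each 60-base probe, 30 bases follow as the deposited array file gives them, with the shared stretch in capitals. On mm9 the Glrx2 probe lies at chr1:145596708-145596767 and the Exosc2 probe at chr2:31536706-31536765. Ttc38 and Milr1 were named after their values were seen.

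Glrx2: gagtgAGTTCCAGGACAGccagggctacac
Kctd14: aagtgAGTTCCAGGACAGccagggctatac
Med16: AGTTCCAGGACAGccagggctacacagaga
Elk1: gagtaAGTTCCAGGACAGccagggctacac
Ttc38: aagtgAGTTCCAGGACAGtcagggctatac
Exosc2: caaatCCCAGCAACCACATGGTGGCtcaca
Milr1: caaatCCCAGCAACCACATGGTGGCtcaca

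The 5 probes with AGTTCCAGGACAG printed here read 9.26, 9.03, 8.79, 8.75 and 8.68 in the order shown. The letters were taken as a stretch common to these 5 probes, which were picked as bright, so that choice fixed their high levels. Of the array's probes 6 hold the letters, and the only one not printed here, of Dnajc5, read 6.92. On the opposite strand the same letters occur in 4 probes, which had a median of 2.39. Other probes of the same genes were far dimmer. Elk1 read 8.75 on the B1-bearing probe and -2.25 on its other probe. Kctd14 read 9.03 on the B1-bearing probe and -0.90 and -4.30 on the others, and Glrx2 read 9.26, then 3.32, then -6.47, the last not above background. Whether the signal of the brighter probe came from the named gene was not tested.

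Probes with simple repeats were bright across the array. A run of at least 20 bases made of a 2- or 3-base unit was found in 160 probes, or 0.287% of the 55664 probes with a value on every array. Of these, 159 were above background and 155 above the 75th percentile, with a median of 3.77, whereas 60.4% of all probes were above background, 23.9% were above the 75th percentile and the median was -4.11. Each of 52 probes with a GT run lay above the 75th percentile, at 2.36 or higher, and so did each of 41 probes with an AAG run. For 74 genes a probe with repeat letters, either a simple run or the B1 or B2 stretch, could be set against another probe of the gene. Among the 74 are Glrx2, Kctd14, Med16, Elk1, Ttc38 and Milr1. The B1 and B2 letters were taken from the brightest probes of these genes, so that choice fixed which of their probes was brighter. The probe with repeat letters was the brighter in 70 of the 74, by more than 4 in 59, and in 17 genes no other probe was above background. The median difference was 6.92, over a range from -1.92 to 14.35.

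Marker genes of several cell types had such probes. The probes of Fgf23 (the phosphate hormone of osteocytes), Itgam (a leukocyte integrin), Snap25 (a synaptic vesicle fusion protein) and Sox5 (a cartilage transcription factor) are shown because each would otherwise count as a bright marker of a cell type. The repeat run is in capitals.

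Fgf23: CACACACACACACACACACAtacatgtaat
Itgam: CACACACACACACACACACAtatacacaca
Snap25: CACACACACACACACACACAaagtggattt
Sox5: GAGGAGGAGGAGGAGGAGGAGGAGGAagaa

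Fgf23 read 4.35 on the probe shown and -7.84, not above background, on its other probe. Itgam read 4.72 on the probe shown and -3.05 and -3.55 on the others. Sox5 read 3.91 on the probe shown, -4.84 on another and -7.85, not above background, on the third. Snap25 has no other probe on the array and read 4.42. The same pattern held for the epithelial factor Trp63, which read 2.24 on a probe with a run of 21 bases and -2.10, -5.12 and -7.97 on the rest. The pericyte adhesion gene Mcam read 4.70 on a probe with repeat letters and -4.33 on the other. Disagreement was not limited to repeats, since the probes of 4076 of 11162 genes with several probes (36.5%) were more than 4 apart, and the median range was 2.93.

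**Figure D2:**
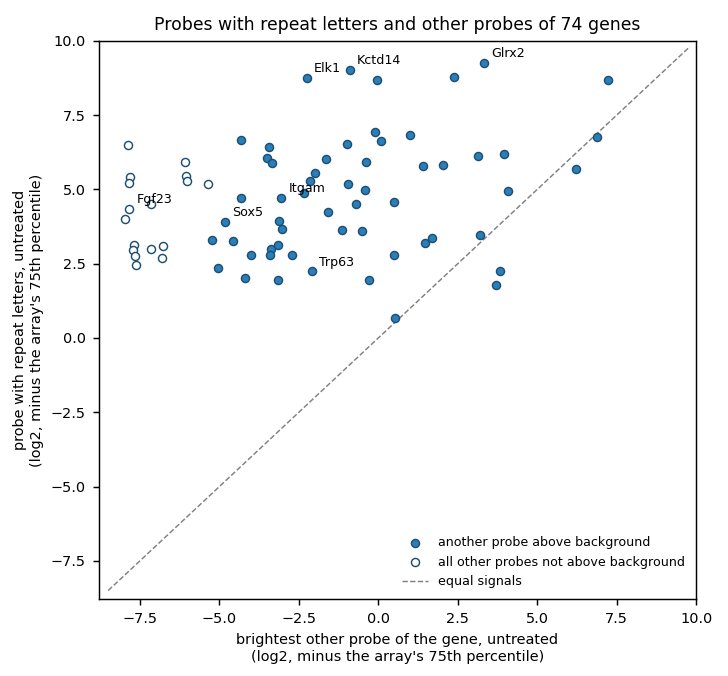
For 74 genes, the untreated signal of the probe with repeat letters (y axis) against that of the gene's brightest other probe (x axis), both log2 relative to the array's 75th percentile. The dashed line marks equal signals, and 70 genes lie above it. Some of these carry the B1 or B2 letters, which were taken from probes picked as bright. Open circles are the 17 genes whose other probes were not above background.

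The promoters of the brightest genes were read for the TATA box, an element near the start site of some strongly expressed genes. The letters TATAAA were searched on the gene's strand between 40 and 20 bases before the start in the RefSeq promoters of the GRCm38.p6 assembly. Of the 200 brightest genes 119 had an entry, and 2 of these held the letters in that window (1.68%, with a 95% exact interval of 0.204% to 5.94% for counting error). Over all 27025 promoters of the table the share was 2.13%. It was 1.91% for genes above background with an entry and 4.69% for genes not above background. The 2 were Ppia and Vim, the intermediate filament of mesenchymal cells, chosen here by this match. Their 60 bases before the start are shown with the match in capitals, from chr11:6415807-6415866 and chr2:13574251-13574310, both on the plus strand of GRCm38.p6.

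Ppia: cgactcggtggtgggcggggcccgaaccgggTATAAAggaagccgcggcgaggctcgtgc
Vim: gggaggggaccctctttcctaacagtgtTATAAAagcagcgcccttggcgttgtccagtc

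To show what a call above background means here, 40 genes of organs with no relation to bone (liver, pancreas, retina, germ line, kidney, lung, thyroid, pituitary, brain, enamel) were counted in the same way. Of the 40, 19 were above background (47.5%), but 1 lay above the 75th percentile (2.50%), against 73.0% and 39.0% of all genes with a symbol. That gene was Apoa2, an apolipoprotein of liver, at 3.46 on 1 probe and at -7.72, not above background, on the other. Insulin (Ins2) read -0.95 and the sperm protamine Prm1 -0.31, both above background, while albumin (Alb), uromodulin (Umod) and the surfactant gene Sftpc were at -7.57, -7.67 and -7.84 and not above background. Cell type lists are therefore given below by how many members lay above the 75th percentile as well as by how many were above background. Of 73 measured genes of the bone lineage, 71 were above background (97.3%), and of 216 genes of the other cell types 160 were (74.1%), with 72 above the 75th percentile (33.3%).

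**Figure D3:**
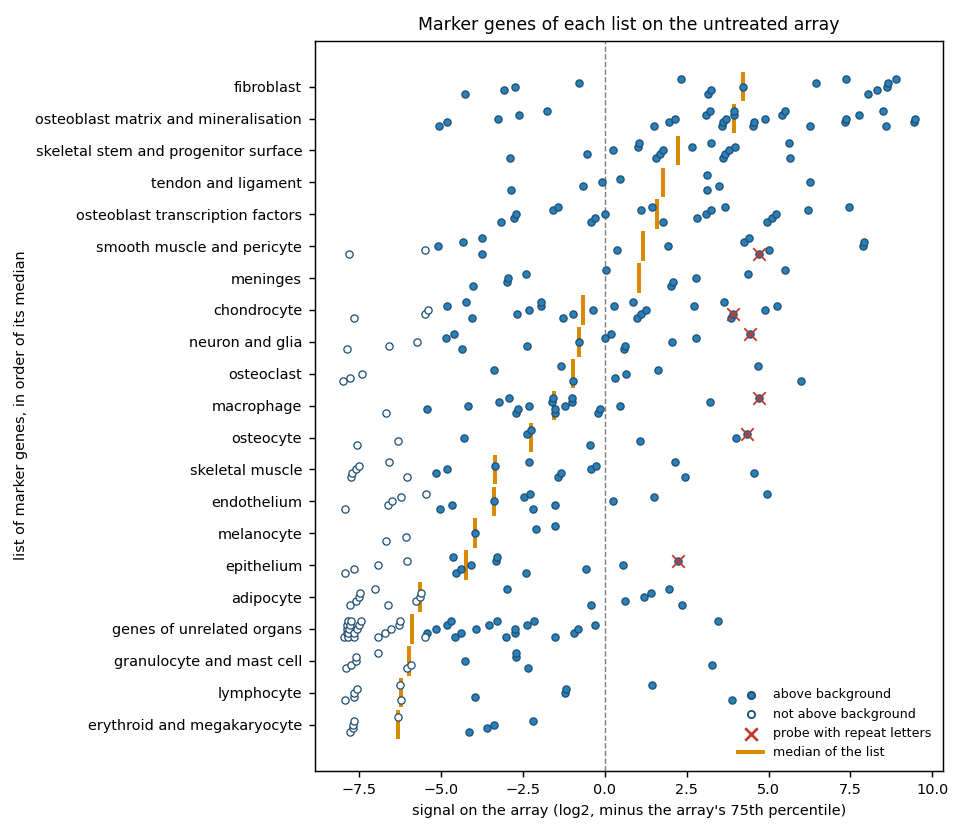
Normalised signal on the untreated array (x axis, log2 relative to the 75th percentile, dashed line) of each member of 21 marker lists, 1 circle a gene, filled where the gene was above background. The orange bars are list medians, from 4.21 for fibroblast genes to -6.33 for erythroid and megakaryocyte genes, and crosses mark genes represented by a probe with repeat letters.

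All 20 osteoblast transcription factors measured were above background, and 13 lay above the 75th percentile (65.0%), with a median of 1.60. The brightest were Atf4, a regulator of amino acid supply and osteocalcin, at 7.47, the homeobox genes Prrx2 and Prrx1 of skeletal mesenchyme at 6.19 and 5.22, the Runx partner Cbfb at 5.11, and Dlx3 and Msx2, homeobox genes of the skull and teeth, at 4.94 and 3.67. The factors that define the lineage were dimmer. Runx2 stood at -0.41, -0.40, -0.36 and -0.30. Its other probes gave -2.11 and -3.73 on the untreated array, all above background. Sp7 stood at -1.42, -1.25, 0.82 and 0.96, and so was higher on both arrays with BMP2. The homeobox gene Dlx5 stood at -0.30, -0.25, 1.06 and 1.19, with the same split.

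These levels were then set against the arrays with BMP2 in an additive limma fit over the 4 arrays, in which 20.7% of 23873 genes changed at an adjusted p under 0.05 (10.5% rose and 10.2% fell). Every call for BMP2 given here rests on leaving out genes that were dim on 3 or more arrays: over all 34778 genes and identifiers limma called 0, with a lowest adjusted p of 0.0893 and 9217 at an unadjusted p under 0.05. Among the 20 osteoblast factors 7 rose and 3 fell, with a median change of 0.06 against 0.0171 over all genes tested. Lef1 and Tcf7, effectors of Wnt signalling, started low at -3.17 and -2.78 and rose by 2.46 ± 0.05 and 1.99 ± 0.08 (fitted log2 change ± SE, adjusted p = 0.02 for each). Sp7 rose by 2.23 ± 0.05 and Dlx5 by 1.40 ± 0.06, with the same adjusted p. For Runx2 the change was 0.08 ± 0.05 (adjusted p = 0.366) on its brightest probe, the only one fitted. Both other Runx2 probes read higher on the arrays with BMP2. They stood at -2.11, -2.20, -1.65 and -1.52, and at -3.73, -3.78, -3.15 and -2.90, on the 4 arrays. No member of any list was called for LOXL2.

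The genes of bone matrix and mineralisation were among the brightest of the array. All 28 measured members were above background and 23 lay above the 75th percentile (82.1%), with a median of 3.94. After Sparc and Col1a2 came Col1a1, the other chain of type I collagen, at 8.58, Pcolce at 8.49, matrix Gla protein (Mgp, an inhibitor of calcification) at 7.75 and Serpinh1, the collagen chaperone, at 7.36. Alkaline phosphatase (Alpl) was at 3.21, osteopontin (Spp1) at 3.95, bone sialoprotein (Ibsp) at 1.97 and the parathyroid hormone receptor Pth1r at 3.69. Osteocalcin was the low one of the defining genes. Bglap stood at -1.78, -1.68, 1.62 and 2.11, and its second probe was not above background at -7.81 on the untreated array. Its near-identical copy Bglap2 stood at 1.51, 1.65, 4.83 and 5.28, and signal from the copies may not be separable. Both were higher on each array with BMP2 than on either without it.

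The 5 matrix genes below the 75th percentile were Bglap, the sphingomyelinase Smpd3 at -3.27, the pyrophosphate-producing enzyme Enpp1 at -2.62, the phosphatase Phospho1 at -5.08 and the osteoblast membrane protein Ifitm5 at -4.81; the last 3 were named after their values were seen. Smpd3, Phospho1 and Enpp1 are known for their part in mineralisation. With BMP2, 9 of the 28 rose and 3 fell, against 10.5% and 10.2% of all genes tested, with a median change of 0.13. Smpd3 rose by 4.11 ± 0.30 (adjusted p = 0.0257), Bglap by 3.60 ± 0.13 and Bglap2 by 3.47 ± 0.11 (adjusted p = 0.02 for both), and Ibsp by 2.53 ± 0.16 (adjusted p = 0.0237). Mgp fell by 1.0 ± 0.05 (adjusted p = 0.0213). For Col1a1 the change was -0.06 ± 0.05 (adjusted p = 0.446).

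Fibrillar collagens of bone and soft tissue led the collagens. Of 44 collagen genes 37 were above background and 24 above the 75th percentile, with a median of 0.97. The brightest after Col1a2 and Col1a1 were Col3a1, a fibrillar collagen of soft tissue, at 8.04, and Col6a1, a chain of the beaded filament collagen, at 7.71. Of the lysyl oxidases, the enzymes that cross-link collagen and elastin, all 5 lay above the 75th percentile without treatment. Lox was at 4.90, Loxl2 at 4.57, Loxl1 at 4.32, Loxl3 at 1.01 and Loxl4 at 0.74. The gene of the added protein, Loxl2, was above background without it, and stood at 4.61 on the LOXL2 array, 4.46 on the BMP2 array and 4.39 on the combined array. With BMP2, Lox fell by 1.03 ± 0.06 (adjusted p = 0.0233), Loxl1 fell by 0.51 ± 0.05 (adjusted p = 0.0335) and Loxl4 rose by 0.42 ± 0.05 (adjusted p = 0.0408).

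Osteocyte genes were mostly low. Of 9 measured, 7 were above background and 3 above the 75th percentile, with a median of -2.27. The Wnt inhibitor sclerostin (Sost), which defines mature osteocytes, was not above background on the untreated array at -7.56, nor was the dentin matrix protein Dmp1 at -6.33. The matrix phosphoglycoprotein Mepe read -2.27 and the endopeptidase Phex -4.30, both above background. The 3 members above the 75th percentile were Fgf23, on the repeat-bearing probe described above, Pdpn, a membrane mucin that fibroblasts and young osteocytes share, at 3.99, and Fbln7 at 1.06.

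Genes that mark skeletal stem and progenitor cells, most of them surface proteins, were mostly above the 75th percentile. All 16 were above background and 14 above the 75th percentile (87.5%), with a median of 2.23. Thy1, a surface protein of mesenchymal cells, was at 5.66, Ly6a (Sca-1) at 5.63, the leptin receptor Lepr at 3.96, Vcam1 at 3.79, Pdgfra at 3.68 and the integrin chain Itgb1 at 3.61. The 4 probes of Lepr ran down to -7.77. The low member was Gli1, an effector and target of hedgehog signalling, which stood at -2.90, -3.27, 2.2 and 2.72 and rose with BMP2 by 5.55 ± 0.27 (adjusted p = 0.021). Of the 16 genes 2 rose and 5 fell, against 10.5% and 10.2% of all genes tested. The chemokine Cxcl12 fell by 1.43 ± 0.05 (adjusted p = 0.02), the intermediate filament Nes by 1.14 ± 0.06 (adjusted p = 0.0212) and the adhesion molecule Alcam by 1.01 ± 0.07 (adjusted p = 0.0256).

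Cartilage genes were detected without treatment. Of 24 measured, 21 were above background (87.5%) and 11 above the 75th percentile (45.8%), against 73.0% and 39.0% of all genes with a symbol. The share above the 75th percentile was thus near that of the whole array. Sox5 is among the 11 on its repeat-bearing probe only. The median of the list was -0.67. Col2a1, the main cartilage collagen, stood at 5.25, 5.49, 7.34 and 7.97, higher on both BMP2 arrays than on either other. Col11a1, which copolymerises with it, was at 4.90, the matrilin Matn4 at 3.86, Comp, a cartilage and tendon thrombospondin, at 3.63 and the proteoglycan Epyc at 2.72. The cartilage master factor Sox9 was at 1.11 and Col9a1 at 0.98, while the proteoglycan Acan was at -1.96 and chondromodulin (Cnmd) at -0.99. Col10a1, the collagen of hypertrophic chondrocytes, was not above background at -5.49 and stood at -5.31, 2.22 and 3.64 on the other arrays. Matn1 was not above background at -7.65, and neither was Matn3 at -5.39. Ihh, a signal of prehypertrophic cartilage cells, was above background at -4.81. Matn1 entered the test only through the arrays with BMP2. Of the other 23 genes 15 rose with BMP2 and 3 fell, against 10.5% and 10.2% of all genes tested. Their median change was 2.23. The median level of the 24 was -0.67, -0.36, 1.47 and 2.10 on the 4 arrays.

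**Figure D4:**
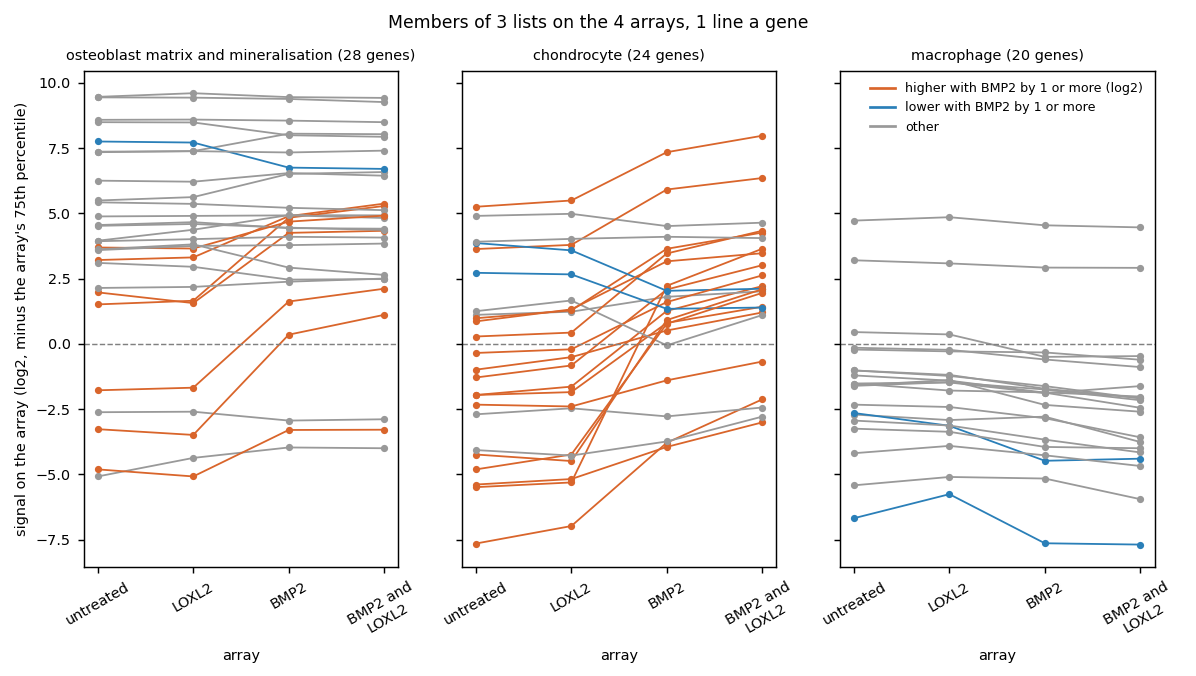
Normalised signal (y axis, log2 relative to each array's 75th percentile, dashed line) of the measured members of 3 lists on the 4 arrays, 1 line a gene, with no replicate. Matrix genes lie mostly above the line, the chondrocyte median is -0.67 on the untreated array and 2.10 on the combined one, and 17 of 20 macrophage genes lie below the line on the untreated array. Orange and blue mark genes higher or lower by 1 or more in the mean of the BMP2 arrays.

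Fibroblast genes had the highest median of any cell type list, 4.21, but several of them are made by osteoblasts too. All 15 were above background and 11 above the 75th percentile. Fn1, the proteoglycans Lum at 8.65 and Dcn at 8.61, Vim at 8.31, Col3a1 and S100a4, a calcium-binding protein, at 7.35 were the brightest. Of the 4 markers that define connective tissue fibroblasts more closely, Cd34 was at 3.14 on 1 probe and -3.66 on the other. Dpt was at -0.80, Pi16 at -3.07 and Dpp4 at -4.28, and all 4 genes were above background. With BMP2 1 member rose and 8 fell, against 10.5% and 10.2% of all genes tested. Cd34 stood at 3.14, 3.0, 0.38 and 0.00 and fell by 2.88 ± 0.09 (adjusted p = 0.02). Dpt fell by 2.44 ± 0.06, Dpep1 by 1.43 ± 0.05 and Mfap5 by 1.28 ± 0.07, and the protease Fap rose by 1.18 ± 0.05 (adjusted p from 0.02 to 0.022).

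Tendon genes were above background in full as well, 8 of 8, with 5 above the 75th percentile. The tendon factor Scx was at 3.13, the tendon membrane protein Tnmd at 3.49, Mkx at 0.45 and the collagen-binding proteoglycan Fmod at 6.27. Tnmd was printed on 9 spots, whose standard deviation was 0.067, and read 3.49, 3.51, 1.49 and 1.51. With BMP2, Tnmd fell by 2.0 ± 0.05 (adjusted p = 0.02). Mkx fell by 1.12 ± 0.07 (adjusted p = 0.0237). The proteoglycan Kera, at -2.87 without treatment, was not above background on either array with BMP2.

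Genes of the meninges, the membranes beneath the skull, were all above background, 10 of 10, with 6 above the 75th percentile and a median of 1.03. Without Ptgds and Crabp2, which other mesenchymal cells share, 4 of 8 lay above it and the median was -1.18. Zic1, a zinc finger factor of the meninges and dorsal neural tube, was at 5.49 on 1 probe and 0.09 on the other, and Zic4 at 0.03. The retinoid-binding protein Crabp2 was at 4.37, the forkhead factor Foxd1 at 2.07 and the tight junction gene Cldn11 at 2.03. Prostaglandin D synthase (Ptgds) stood at 2.78, 2.49, -2.40 and -2.54 on the 4 arrays. With BMP2, Ptgds fell by 5.11 ± 0.07 (adjusted p = 0.02). The GABA transporter Slc6a13 stood at -2.96 and -3.70 without BMP2 and was not above background with it, and the retinoic acid enzyme Aldh1a2, at -2.40, fell by 1.5 ± 0.14 (adjusted p = 0.0295). Slc6a13 and Slc47a1 entered the test only through the arrays without BMP2. Of the other 8 genes 1 rose and 4 fell, against 10.5% and 10.2% of all genes tested.

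Adipocyte genes were mixed. Of 16 measured, 7 were above background and 5 above the 75th percentile, with a median of -5.64. Under the scanner software's weaker test against background, 14 of the 16 were above it. The adipogenic regulator Pparg was at 1.41, the fatty acid binding protein Fabp4 at 2.37, lipoprotein lipase (Lpl) at 1.96, the glucose transporter Slc2a4 at 1.19, Plin4 at 0.60 and Cebpa at -0.44. The fat cell hormone adiponectin (Adipoq) was not above background at -5.63, nor was the lipid droplet protein perilipin (Plin1) at -6.64. With BMP2 Plin4 rose by 1.76 ± 0.06 (adjusted p = 0.02), and no other gene of the list passed the test.

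Skeletal muscle genes were mixed. Of 17 measured, 11 were above background and 3 above the 75th percentile, with a median of -3.37. The 3 were the actin Acta1 at 4.54 and the myosin heavy chains Myh8 at 2.46 and Myh1 at 2.13. The myogenic factors Myod1 and Myog were near the floor at -5.17 and -4.82, and creatine kinase (Ckm) and the fast myosin light chain Mylpf were not above background at -6.60 and -7.73. Myh1 stood at 2.13, 1.95, -2.85 and -3.09 on the 4 arrays. Its sequence is close to that of Myh4 and Myh8, and the 4 Myh8 probes ran from 2.46 to -7.67, so these signals cannot be assigned to 1 myosin with certainty. With BMP2, Myh1 fell by 5.01 ± 0.06, Myh8 fell by 4.79 ± 0.10 and Acta1 fell by 1.21 ± 0.05 (adjusted p = 0.02 for each), and Myh4, at -3.37 without treatment, was not above background on either BMP2 array.

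The bright smooth muscle and pericyte genes were among those marked here as shared with other mesenchymal cells. Of 14 measured, 12 were above background and 8 above the 75th percentile. Those 8 were all among the 9 members so marked, and 0 of the 5 others lay above it. The marking was made with earlier results of these data known, and Mcam is among the 8 on its repeat-bearing probe only. Which cells the signal came from was not tested. Smooth muscle actin (Acta2) was at 7.91, transgelin (Tagln) at 7.88, calponin (Cnn1) at 5.02, Pdgfrb at 4.41 and smoothelin (Smtn) at 4.26. The pericyte marker Rgs5 was at -5.10, smooth muscle myosin (Myh11) at -3.77 and the pericyte channel Kcnj8 at -7.81, the last not above background. Acta2 and Tagln, at 7.91 and 7.88, each fell by 1.03 ± 0.05 with BMP2 (adjusted p = 0.0212), and Cnn1 by 1.20 ± 0.05 (adjusted p = 0.02).

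Macrophage genes were almost all above background but dim. Of 20 measured, 19 were above background (95%) and 3 above the 75th percentile (15.0%), with a median of -1.56. The F4/80 gene Adgre1 was at -2.71, the complement gene C1qa at -2.33 and the leukocyte phosphatase Ptprc (CD45) at -5.42. Lysozyme (Lyz2) was at 0.45, the signalling adaptors Fcer1g and Tyrobp at -0.15 and -1.02 and the lysosomal protein Cd68 at -0.22. The receptor Csf1r gave 3.20 on 1 probe, 0.73 on another and -2.85 on the third, and Itgam was bright only on its repeat-bearing probe. For the genes of unrelated organs the share above background was 47.5% and the median -5.88.

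On the 4 arrays the median of the macrophage list was -1.56, -1.47, -1.88 and -2.31, with 19, 19, 19 and 18 members above background. Of 19 tested, 0 rose and 9 fell with BMP2, against 10.5% and 10.2% of all genes tested, with a median change of -0.55. The mannose receptor Mrc1 stood at -2.65, -3.14, -4.48 and -4.40 and fell by 1.55 ± 0.18 (adjusted p = 0.037). Lyz2 fell by 0.89 ± 0.06 (adjusted p = 0.0256). In a bulk sample, fewer cells of a type and less RNA per cell cannot be told apart, here or for any list.

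Of 11 osteoclast genes 8 were above background and 5 above the 75th percentile, 3 of these also known from mesenchymal cells. Cathepsin K (Ctsk), a collagenase of osteoclasts that fibroblasts also make, was at 6.0, and Acp5 (tartrate-resistant acid phosphatase) at 4.68 and 4.49 on its 2 probes. Itgb3 was at 1.62, the calcium-responsive factor Nfatc1 at 0.63 and the RANKL receptor Tnfrsf11a at 0.30. Of the defining markers, the calcitonin receptor Calcr at -7.80 and the fusion protein Dcstamp at -7.99 were not above background, while Oscar was at -0.98 and Ocstamp at -1.35. The gene of the proton pump subunit Atp6v0d2 was at -3.39 and rose by 1.79 ± 0.15 with BMP2 (adjusted p = 0.0274).

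Signals that regulate osteoclasts were detected without treatment: 11 of 12 were above background and 6 above the 75th percentile. Csf1, the macrophage growth factor, was at 4.12 on the brightest of 4 probes, the decoy receptor osteoprotegerin (Tnfrsf11b) at 1.17 and Il34, the other ligand of the Csf1 receptor, at 1.29. Wnt5a was at 2.31, the chemokine Ccl2 at 2.15 and Sema3a at 0.96. RANKL itself (Tnfsf11), named here after its value was seen, read -1.95, -1.85, -0.84 and -0.99 on the 4 arrays. With BMP2 it rose by 0.99 ± 0.09 (adjusted p = 0.0308) and Sema3a fell by 1.94 ± 0.08 (adjusted p = 0.02).

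Genes of other blood cells were few above the 75th percentile. Under the weaker test against background, lymphocyte genes came to 8, granulocyte and mast cell genes to 8 and erythroid and megakaryocyte genes to 5, against the counts that follow. Of 11 lymphocyte genes 5 were above background and 2 above the 75th percentile. Those were Cd4 at 3.88 on 1 probe and -4.07 on the other, and the T cell receptor component Cd3e at 1.45 on its only probe. Cd79a read -1.18, Lck -1.23 and Gzma -3.98. Of 12 granulocyte and mast cell genes 5 were above background, and 1 of them, neutrophil elastase (Elane), lay above the 75th percentile at 3.27, on its only probe. Mpo and Camp were at -2.36 and -2.72, Tpsb2 at -2.72 and S100a8 at -4.26, and the mast cell protease Cpa3 was not above background at -6.94. Of 9 erythroid and megakaryocyte genes 4 were above background and 0 above the 75th percentile. They were the platelet chemokines Pf4 at -2.21 and Ppbp at -3.38, the platelet integrin Itga2b at -3.59 and the globin Hba-a1 at -4.14. The red cell gene Alas2 was not above background at -7.79.

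Of 15 endothelial genes, 10 were above background and 3 above the 75th percentile, with a median of -3.38. Kdr, the main VEGF receptor, gave 4.96 on 1 probe and -1.95 on the other. Pecam1 was at -1.53, VE-cadherin (Cdh5) at -2.48, Tek at -5.05, Erg at -2.19 and Plvap at -2.29, all above background. Egfl7 was at 1.49 and the VEGF receptor Flt1 at 0.24 on the brightest of 3 probes, with the dimmest at -6.35. With BMP2 Erg fell by 1.38 ± 0.05 and Flt1 by 1.34 ± 0.06, and Vwf, at -4.67 without treatment, rose by 1.89 ± 0.06 (adjusted p = 0.02 for each).

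Of 15 neuron and glia genes 12 were above background (80%) and 7 above the 75th percentile (46.7%), against 73.0% and 39.0% of all genes with a symbol. Apart from Snap25, the synaptic vesicle protein Syp was at 2.77, the calcium-binding protein S100b, which chondrocytes share, at 2.05, Mbp at 0.62, Elavl4 at 0.58 and Stmn2 at 0.18. The dimmest probe of Mbp read -4.80 and that of Elavl4 -7.61. The glial factor Sox10 was at -2.37. S100b stood at 2.05, 2.15, 3.31 and 3.78 on the 4 arrays and rose with BMP2 by 1.44 ± 0.13 (adjusted p = 0.0288). Mbp fell by 1.77 ± 0.07 (adjusted p = 0.02). Of 5 melanocyte genes Mlana, Tyr and Pmel were above background at -1.51, -2.09 and -3.97, and Dct and Tyrp1 were not, at -6.09 and -6.69; under the weaker test all 5 were. Of 14 epithelial genes 10 were above background and 2 above the 75th percentile. The 2 were Trp63, on its repeat-bearing probe, and Esrp1, at 0.55 on 1 probe and -6.36, not above background, on the other. Epcam was not above background at -7.67, and E-cadherin (Cdh1) was at -4.63, Krt5 at -2.42 and Krt14 at -4.09. Of 50 keratins 26 were above background and 4 above the 75th percentile, with a median of -5.05. They were Krt85 at 4.30, with another probe at -3.97, Krt222 at 2.78 on a probe with repeat letters, with the other at -2.73, Krt73 at 2.36 and Krt16 at 0.56.

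Positional genes of the HOX clusters were low throughout. HOX genes encode homeobox factors whose combination marks the level along the body axis, and they are not used by the neural crest cells that form the front of the skull. None of the 39 measured genes of the 4 clusters lay above the 75th percentile. In the HOXA cluster 7 of 11 were above background, among them Hoxa2, Hoxa3, Hoxa6, Hoxa7 and Hoxa4 between -3.60 and -4.15. The 7 include genes not reported here, so that range is not the range of the cluster. In the HOXB cluster 6 of 10 were above background, led by Hoxb3 at -1.28, Hoxb2 at -1.88, Hoxb4 at -2.30 and Hoxb5 at -3.32. In the HOXC cluster 1 of 9 was above background, Hoxc6 at -5.49. In the HOXD cluster 2 of 9 were, Hoxd8 at -1.89 and Hoxd4 at -3.10. Under the weaker test against background the HOXC count was 6 and the HOXD count 4. The shares by cluster ran from 63.6% and 60% down to 11.1% and 22.2%, while the genes of unrelated organs gave 47.5%.

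Transcription factors of the face and skull were brighter than the HOX genes. Of 17 measured, 15 were above background (88.2%) and 7 above the 75th percentile (41.2%), with a median of -0.76. For all genes with a symbol the shares were 73.0% and 39.0%, so the share above the 75th percentile was near that of the whole array. Six2, a homeobox factor of head mesenchyme, gave 4.91, -0.13 and -4.58 on its 3 probes, all above background. The forkhead factors Foxc1 and Foxc2 of the skull mesenchyme were at 2.59 and 1.79, and the frontonasal factor Alx1 at 0.74. Dlx2, a factor of the jaw arches, was at 0.36 and rose with BMP2 by 1.07 ± 0.10 (adjusted p = 0.0306). Of 13 limb and somite factors 9 were above background and 2 above the 75th percentile, with a median of -3.45. They were Tbx15 at 3.01 and Meox2 at 1.06, followed by Tbx3 at -0.38. The forelimb factor Tbx5 and the hindlimb factor Pitx1, named after their values were seen, were not above background at -5.89 and -7.54. The bone from which the cells came is not given in the sources used here, and these levels are no test of it.

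**Figure D5:**
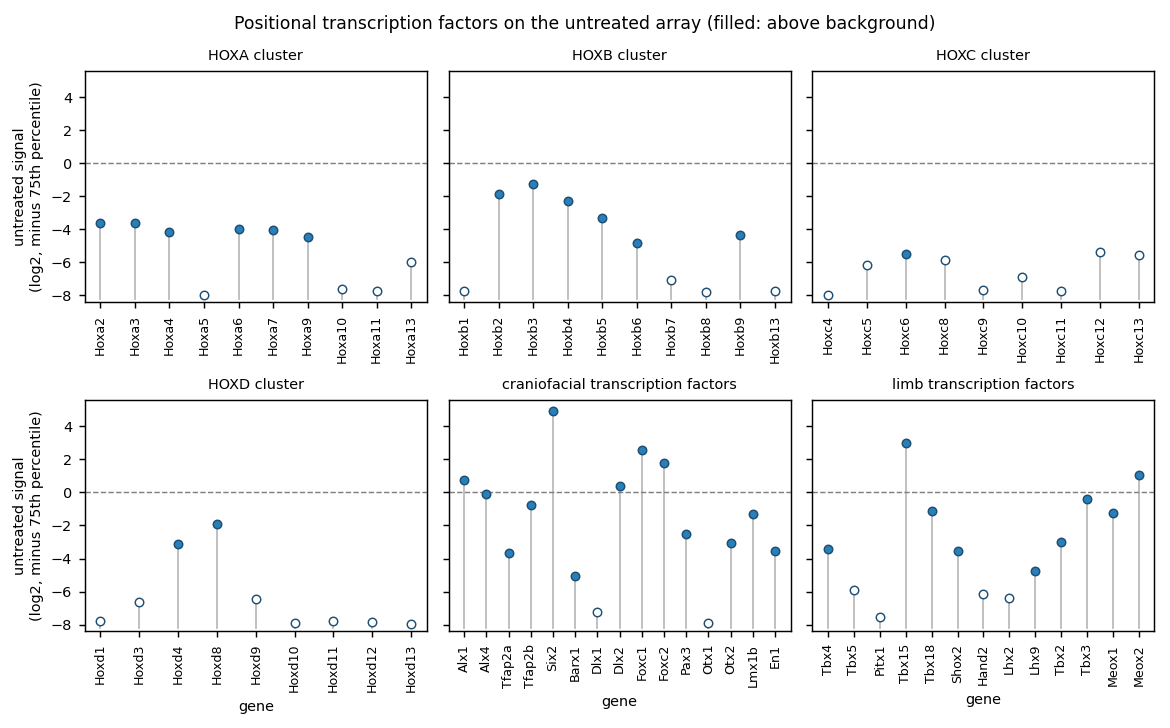
Untreated signal (y axis, log2 relative to the 75th percentile, dashed line) of genes of the 4 HOX clusters and of 2 lists of transcription factors, in list order along the x axis, 1 array with no replicate; a few measured genes are not drawn. No HOX gene drawn reaches the dashed line, while 5 of the craniofacial and 2 of the limb factors drawn lie above it.

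Genes of both sexes were above background. The Y-linked genes Ddx3y, Eif2s3y and Uty were at 1.14, 0.77 and -3.12, and Kdm5d, also Y-linked, was not above background at -6.05. Xist, the noncoding RNA of the inactive X chromosome, gave -1.25 and -2.02 on its 2 probes, both above background. On the LOXL2, BMP2 and combined arrays Xist read -1.09, -0.84 and -1.03 and Ddx3y 1.18, 1.12 and 1.22. Whether animals were pooled is not given in the sources used here.

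Receptors and Smads of the BMP pathway were above background without added BMP2. BMPs signal through type I and type II receptor kinases to Smad1, Smad5 and Smad9, which act with Smad4, and secreted antagonists hold the ligands off their receptors. Of 18 receptors and Smads 17 were above background and 10 above the 75th percentile. The type I receptors Acvr1 and Bmpr1a were at 4.11 and 2.83, and Acvrl1 at 1.79. The 3 probes of Acvr1 ran down to -7.7. Smad4 was at 3.68 and Smad5 at 3.0, and the ubiquitin ligase Smurf2 at 1.48. Of 18 tested 3 rose with BMP2 and 1 fell, against 10.5% and 10.2% of all genes tested. Smad9 stood at -1.60, -1.55, -0.47 and -0.28 and rose by 1.21 ± 0.07 (adjusted p = 0.022), and the inhibitory Smad6 rose by 1.08 ± 0.11 (adjusted p = 0.0325).

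Ligand genes were mostly dim. Of 16 ligand genes 15 were above background and 4 above the 75th percentile. Bmp4 was the brightest ligand at 4.96 (its other probe read -6.18), followed by Bmp1, a procollagen protease in spite of its name, at 4.58, Gdf10 at 1.48 and Bmp8a at 0.45. Bmp4 stood at 4.96, 4.87, 2.54 and 2.36 on the 4 arrays. With BMP2, Bmp4 fell by 2.46 ± 0.06 (adjusted p = 0.02). Gdf6 read -1.57 and -1.51 without BMP2, -4.84 on the BMP2 array and was not above background on the combined array. The transcript of Bmp2 itself, named after its value was seen, read -1.64, -1.88, -1.40 and -1.33, a change of 0.39 ± 0.11 (adjusted p = 0.103).

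Of 16 antagonists 14 were above background and 9 above the 75th percentile. Fstl1, a follistatin-like secreted glycoprotein, was at 8.06, Nbl1 at 5.53, follistatin (Fst) at 3.20, Twsg1 at 2.32 and Bmper at 2.28. Grem1 stood at -0.13, 0.26, 2.75 and 2.80 and rose with BMP2 by 2.71 ± 0.11 (adjusted p = 0.02), and Sostdc1 stood at -1.02, -1.60, -5.18 and -5.10 and fell by 3.83 ± 0.21 (adjusted p = 0.0216). The ID genes, inhibitors of differentiation and common targets of BMP signalling, lay above the 75th percentile in 3 of 4 cases: Id3 was at 4.63, Id2 at 3.75, Id1 at 3.04 and Id4 at -0.30. Id1 stood at 3.04, 2.91, 3.67 and 3.82 and rose by 0.78 ± 0.10 (adjusted p = 0.041), while Id4 fell by 0.86 ± 0.06 (adjusted p = 0.025).

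Cell cycle genes were high without treatment. All 20 measured were above background and 17 above the 75th percentile (85%), with a median of 1.59. The replication clamp Pcna was at 4.5, the ribonucleotide reductase subunit Rrm2 at 3.77, the spindle protein survivin (Birc5) at 3.56, the helicase subunit Mcm3 at 2.84, Cdc20 at 2.51 and the kinase Plk1 at 2.41. The inhibitors were bright too, 7 of 8 above the 75th percentile. Cdkn1c was at 6.96, Cdkn2b at 4.28, Cdkn2d at 3.05, Cdkn2a at 2.92, Cdkn1a at 2.91 and Cdkn1b at 2.84. The median of the 20 cell cycle genes was 1.59, 1.36, 1.18 and 1.0 on the 4 arrays. With BMP2 1 rose and 8 fell, against 10.5% and 10.2% of all genes tested, with a median change of -0.39. Cdc20 fell by 0.61 ± 0.07 (adjusted p = 0.0359) and Cdkn1c fell by 1.69 ± 0.07 (adjusted p = 0.02).

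Genes that mark a recent stimulus were moderate. Of 19 immediate early genes 17 were above background and 8 above the 75th percentile, with a median of -0.31. The AP-1 subunits Jund, Fosl2 and Jun were at 4.75, 3.86 and 3.73 and Egr1 at 3.12. Of 14 genes matched by a pattern of histone symbols, 12 were above background and 6 above the 75th percentile. The brightest of the 14 were the replacement histones H3f3a at 5.86 and H3f3b at 4.31, then H1f2 at 3.64 and H1f4 at 1.89. The pattern leaves out symbols that begin with H2ac, H2bc, H3c or H4c, so the count does not cover core histones named in that way. All 12 reference genes were above background and 10 lay above the 75th percentile. Rplp0, Gapdh and B2m were at 9.04, 8.61 and 7.17. The 8 probes of Gapdh ran from 8.61 to 3.91. With BMP2 3 of the 12 rose and 1 fell, against 10.5% and 10.2% of all genes tested. The transferrin receptor Tfrc rose by 1.10 ± 0.07 (adjusted p = 0.023) and the glycolytic enzyme Pgk1 by 1.04 ± 0.05 (adjusted p = 0.0212). B2m rose by 0.55 ± 0.05 (adjusted p = 0.0304), and Actb fell by 0.34 ± 0.05 (adjusted p = 0.0484).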

How the data were processed

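Total RNA (100 ng) was amplified and labelled with Cy3, per the labels' protocols, and each treatment was hybridised to 1 array of the same slide. The deposited intensity of each spot was made by the authors; the submitters' processing notes name Agilent Feature Extraction 10.7.3.1. It is, per the file headers, background-subtracted, detrended, and replaced by a surrogate where not above background. The authors' value table, compared with it, was within 0.1% of a probe's mean signal for 99.5% of probes. Intensities were put on the log2 scale here, minus the log2 75th percentile of the 59305 non-control spots of the array (an intensity of 710.5 on the untreated array). Spots marked as outliers were dropped (133 on the untreated array) and the spots of a probe averaged. Names came from RefSeq accessions of GRCm38.p6 for 26847 probes, from the file for 4442, and 24375 kept an identifier. Symbols and positions in the files are old in part; positions are on mm9. The probe of highest mean over the 4 arrays stood for a gene, and a gene was above background if any probe was.

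Treatment effects were fitted with limma 3.58.1 under R 4.3.3, BMP2 and LOXL2 being additive. The 23873 genes fitted were those whose standing probe, the one of highest mean, was above background on at least 2 of 4 arrays. The fit leaves 1 residual degree of freedom (prior 1.73), which is a gene's departure from additivity of BMP2 and LOXL2 on these 4 arrays. Every SE and p-value rests on that departure, drawn towards a value common to all genes, and not on replicate cultures. The p-values were adjusted by the Benjamini-Hochberg method. The fit was tested on simulated data, in which 100 genes were given a BMP2 change of 1 and another 100 a change of 2. With 0 other genes changed, 0 of 100 were called at either size. With 9000 other genes changed, 76 and 92 of 100 were called, and so were 32 of 14673 unchanged genes. A fit of this design can therefore miss changes of 2 when few genes change. The genes named were the 30 brightest, every defining marker, up to 6 of the brightest members above background in each list, all such members where there were 5 or fewer, up to 4 of the largest changes of at least 1 each way, and up to 4 of each symbol class; others were named after their values were seen, to complete a sentence on a list. The members, gene lists and settings were chosen with earlier results of these data known, so no list is independent evidence. Of 517 listed genes, 514 had a probe. Some genes the rule names are not reported here; counts and medians of the lists include them. Tables were handled in Python 3.11.15 with pandas 2.3.3 and numpy 2.4.6. Depth on an array is signal over background, and having 4 arrays without replicates limits precision.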

Additional observations from a re-analysis of the deposited data

How the results depend on the processing

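With the scanner software's weaker test against background 28445 genes were above background, and 19490 when every probe of a gene had to be, both within 1.5 times of 23726; the listed genes came to 458 and 364 against 400. The weaker test moved 6 of 37 list counts by more than that (adipocyte 14, lymphocyte 8, granulocyte and mast cell 8, melanocyte 5, HOXC 6, HOXD 4), and the stricter one 2 (granulocyte and mast cell, epithelium). A floor at 3 times the median of dim probes (an intensity of 10.5) lies below every signal called above background and changed nothing. Taking the median over a gene's probes kept 65 of the 100 brightest genes, normexp kept 95, and leaving out probes with repeat letters, a choice made after seeing the data, kept 93. The count of genes called for BMP2 by limma was 0 with no filter on dim probes (9217 at an unadjusted p under 0.05), 9074 with normexp and 10321 with trend and robust settings, against 4941; for LOXL2 it was 14 with trend and robust settings and 0 otherwise. TATAAA anywhere from 250 bases before the start to 50 after it was found in 8.4% of the 200 brightest genes with an entry. Over all promoters the share was 8.88%. That window is longer than the one searched above, so 8.4% is not comparable with the 1.68% found there. The cause of the moves in the counts was not tested. With 1 array a treatment no array could be left out. No paired analysis was possible because the labels give no replicate numbers.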

Other observations

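Imprinted genes, which are transcribed from the copy of 1 parent and many of which act on fetal growth, stood high on the untreated array. The list of 16 was drawn up after the level of H19 had been seen, so its count is a description. Of the 16, 13 were above background and 12 above the 75th percentile, with a median of 3.05, against 73.0% and 39.0% of all genes with a symbol. Besides H19 at 9.07, the zinc finger factor Plagl1 was at 7.24, Mest at 7.01, the cell cycle inhibitor Cdkn1c at 6.96, the noncoding RNA Meg3 at 4.97 and the membrane protein Dlk1 at 3.84. Igf2, the growth factor neighbour of H19, was at 2.84, 2.87, 2.79 and 2.91 on the 4 arrays. Probes disagreed for several: the 4 of Plagl1 ran from 7.24 to -1.29 and the 3 of Meg3 from 4.97 to -1.66.

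With BMP2 1 of 13 tested rose and 8 fell in limma, with a median change of -1.05, where 10.5% and 10.2% of all genes tested rose and fell. Mest stood at 7.01, 6.79, 5.56 and 5.51 and fell by 1.37 ± 0.07 (adjusted p = 0.0213). Peg3 fell by 1.63 ± 0.05 (adjusted p = 0.02), Meg3 by 1.59 ± 0.12 (adjusted p = 0.0261) and Dlk1 by 1.37 ± 0.19 (adjusted p = 0.0445). Igf2r, the receptor that clears Igf2, rose by 0.59 ± 0.07 (adjusted p = 0.0384), and for H19 the change was -0.01 ± 0.06 (adjusted p = 0.881).

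Probes for long intergenic noncoding RNAs were above background in 7163 of 16244 cases (44.1%), and all probes in 60.4%, and 31 of the 100 brightest entries of the array carried an identifier without a symbol.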
